A study of Drosophila melanogaster with 5 samples.

Results

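The whole-body library of the Drosophila melanogaster line iso1a was set against the whole-body libraries of the lines Rev and IR6. A gene or transposable element (TE) was called different where iso1a differed from both others by at least 2-fold in the same direction. These are 3 of the 5 libraries of a series on the transcripts that TEs give rise to, and the other 2 came from iso1a ovaries. For each line, polyadenylated RNA of intact flies (10 males under 24 h old and 10 females of 0 to 3 days, pooled) was copied from random primers and sequenced on an Illumina instrument without keeping the strand. The iso1a library carries the label normalization yes, and the Rev and IR6 libraries carry normalization no. The labels give no genotype beyond the names of the lines and do not say what was normalized. The line and the label change together, so their effects cannot be told apart. There was 1 library per line, so no difference has a replicate check, no test across libraries was possible, and every interval is an exact 95% interval (Clopper-Pearson) that covers counting error alone.

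A whole-body library mixes the transcripts of all tissues in proportion to their mass and activity. Transcripts of ribosomal proteins, muscle proteins, mitochondrial enzymes, yolk proteins and eggshell proteins are usually among the most common in adult flies, while immune peptides are made mainly when a microbe or injury is sensed. TEs are repeated sequences that copy or move themselves through the genome, and small RNAs of the piRNA pathway hold many of them silent in the gonads. In a mixture of tissues, fewer cells of a type and less RNA per cell cannot be told apart.

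Gene counts summed to 4379746 in iso1a, 11685814 in Rev and 9633168 in IR6, and levels in CPM are counts scaled to a common gene total. A count of 3 is worth 0.685 CPM in iso1a, 0.257 CPM in Rev and 0.311 CPM in IR6. Of 13263 genes listed in any of the 3 libraries, 10300 had at least 50 counts in Rev and IR6 together and were compared. The minimum does not use iso1a, so that library had no part in choosing the genes. Of the 2963 genes under it, 368 had at least 50 counts in iso1a. All 29 markers fixed for eye, nerve, muscle, gut, fat body, blood, ovary, testis, accessory gland and cuticle had counts in all 3 libraries, from 8 to 11530 in iso1a, from 9 to 494716 in Rev and from 4 to 413823 in IR6. Read names listed for TEs, which cover part of the reads, carry lanes 1 and 6 for iso1a, lane 2 for Rev and lane 3 for IR6. The prefix recorded was N1 for iso1a, NG-5207-51 for Rev and NG-5207-52 for IR6. Lane and prefix thus also changed with the line. Whether a prefix marks a sequencing run is unknown, and the part of lane and prefix was not tested.

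The abundant transcripts took a smaller share of the iso1a library. The most abundant gene of iso1a was pAbp, which encodes the poly(A)-binding protein, with 19121 counts or 0.437% of gene counts. In Rev and IR6 it was the yolk protein gene Yp1, with 4.23% in Rev and 4.30% in IR6. The top 10 genes of each library held 2.67% of its gene total in iso1a, 11.8% in Rev and 13.0% in IR6, and the top 1000 held 47.4%, 61.6% and 64.2%. Genes above 1000 CPM numbered 63 in iso1a, 114 in Rev and 123 in IR6, whereas genes above 100 CPM numbered 2757, 1990 and 1811. More genes thus lay at middle levels in iso1a. From the percentile 5 to the percentile 95 the 10300 genes spanned 7.17 log2 units in iso1a, 6.48 in Rev and 6.43 in IR6. In log2 CPM the percentile 5 lay at 1.26 in iso1a, 1.76 in Rev and 1.75 in IR6, and the percentile 95 at 8.43, 8.24 and 8.18. The minimum drops genes that are rare in Rev and IR6 but keeps genes that are rare in iso1a alone. The low ends of the spans are therefore not comparable.

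The ratio depended on the level of the gene in Rev and IR6, as the plot of shares and ratios shows. Genes were put in 10 bins by their Rev level and their ratio of iso1a to IR6 was read, so that the binning library was not in the ratio. This keeps only the counting error of the binning library out of the ratio. Levels in Rev and IR6 were closely alike (Spearman's rho 0.959), so bins of one are close to bins of the other. Bins of the iso1a level were not read. The median log2 ratio was 1.27 in the lowest bin and −0.94 in the highest. With bins of the IR6 level and the ratio of iso1a to Rev, it was 0.92 in the lowest bin and −1.01 in the highest. In the lowest Rev bin 50.4% of genes were at least 2-fold higher in iso1a than in both and 14.2% at least 2-fold lower, and in the highest Rev bin 8.06% were higher and 45.3% lower.

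**Figure D1:**
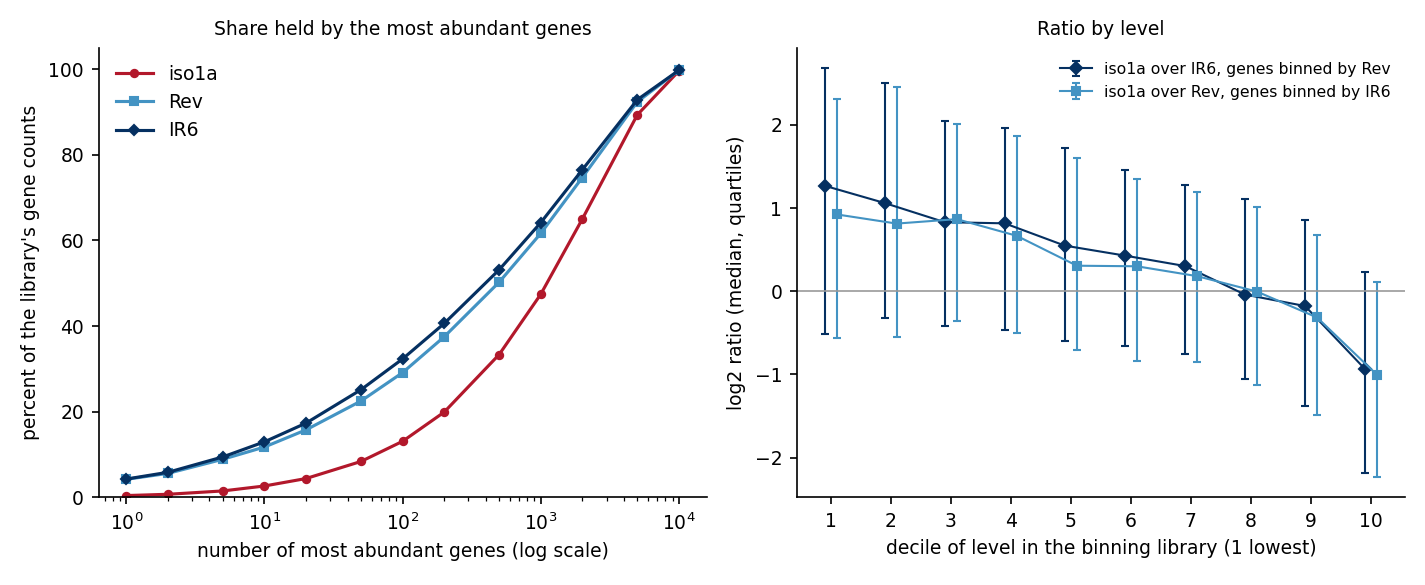
Left, the percent of each library's gene counts held by its most abundant genes, against their number on a log scale. Right, the median log2 ratio (bars, quartiles) of iso1a over IR6 in deciles of the Rev level, and of iso1a over Rev in deciles of the IR6 level. The iso1a curve lies below the curves of Rev and IR6 (2.67%, 11.8% and 13.0% at 10 genes), and the median ratio is positive in the lowest decile and negative in the highest.

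Scaled to the gene total, 3210 of the 10300 genes were at least 2-fold higher in iso1a than in both others (31.2%) and 2166 at least 2-fold lower (21.0%). The split depended on the scaling. TMM factors (trimmed mean of M-values) moved all log2 ratios by −0.33 against Rev and −0.43 against IR6, and then 2471 genes were higher (24.0%) and 2790 lower (27.1%). Median-ratio factors gave 2590 higher and 2660 lower, and ratios centred on bins of level gave 2465 and 2591. Ratios centred on bins of level and transcript length, available for 9993 genes, gave 2090 higher (20.9%) and 2319 lower (23.2%). Gene lists are therefore described by the counts on the gene total, with TMM factors and after centring on level and length, each to be read against these shares over all genes.

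Ranks within a library do not depend on the scaling. Each gene was given its percentile among the 10300 genes of its own library, from 0 for the lowest to 100 for the highest. Ranks are of read counts and not of counts per length, so a gene's rank is compared only with its own rank elsewhere. The rank was at least 10 points higher than in both others for 2898 genes (28.1%) and at least 10 points lower for 3006 (29.2%). The median shift of a gene's rank, in either direction, was 15.9 points between iso1a and Rev and 16.2 between iso1a and IR6, against 3.88 between Rev and IR6. Genes are not independent replicates, so as a description only, Spearman's rho across them was 0.572 for iso1a and Rev, 0.579 for iso1a and IR6 and 0.959 for Rev and IR6.

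Genes of the cytoplasmic ribosome were much lower in iso1a. Of 84 ribosomal protein genes compared, 65 were lower and 2 higher (71 and 2 with TMM factors), with a median log2 ratio of −2.62, where the median over all genes was 0.31. Their summed level was 13941 CPM in iso1a, 90800.2 CPM in Rev and 113153 CPM in IR6, and their median rank was 76.8 in iso1a, 98.1 in Rev and 98.5 in IR6. After centring on level and length 54 were still at least 2-fold lower and 3 higher. RpL15, a protein of the large subunit, had 2434 counts in iso1a, compared with 118867 in Rev and 151135 in IR6, with log2 ratios of −4.19 and −4.82 (throughout, against Rev and then against IR6). RpS16, a protein of the small subunit, had 355 counts in iso1a, with 49203 in Rev and 58040 in IR6 (−5.70 and −6.21). RpL23 had 441, 48627 and 75067 counts in the same order (−5.37 and −6.27) and overlaps inaD. These genes were far below both other lines in iso1a, though RpL15 was still at rank 97.8 there, and all 3 were lower in Rev than in IR6 (log2 ratios of −0.63, −0.52 and −0.91). The 2 members higher in iso1a, picked for mention after their values were seen, were RpS10a with 267 counts against 63 in Rev and 76 in IR6 and RpL10Aa with 352 against 86 and 110. Both are rarer copies of a ribosomal gene pair, and the abundant copies RpS10b (379 in iso1a, 29017 in Rev, 28781 in IR6) and RpL10Ab (1010, 15910 and 17153) were lower. How reads that fit both copies of a pair were counted is not known from the sources used here, so the split within such pairs is uncertain.

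Other parts of the translation machinery differed less, and not all in one direction. Of 50 initiation and elongation factor genes, 24 were lower and 7 higher (median −1.01, with 26 and 7 under TMM factors, 17 and 7 after centring). eEF1alpha1, which brings transfer RNAs to the ribosome, had 6114 counts in iso1a, set against 51418 in Rev and 38070 in IR6 (−1.66 and −1.50), and eEF2, which moves the ribosome along, had 1715, 50082 and 40943 (−3.45 and −3.44). pAbp had 19121 counts in iso1a, compared with 22803 in Rev and 28254 in IR6, log2 ratios of 1.16 and 0.57 that did not pass against IR6. Of 33 genes of aminoacyl-tRNA synthetases, which charge transfer RNAs, 11 were lower and 1 higher by ratio (14 and 0 with TMM factors, 10 and 1 after centring), and 20 were lower and 1 higher by rank. SerRS had 116 counts in iso1a, with 3152 in Rev and 2520 in IR6 (−3.34 and −3.30) and overlaps CG17260. Mitochondrial ribosomal protein genes did not share the shortfall, with 29 of 73 higher and 15 lower (median 0.58). TMM factors gave 22 higher and 17 lower, and after centring on level and length 5 were higher and 14 lower, so the direction of this list depends on the scaling. mRpS21 had 1341 counts in iso1a, set against 260 in Rev and 359 in IR6 (3.78 and 3.04) and overlaps CG8870, while mRpS5 had 1310, 2353 and 1913 (0.57 and 0.59).

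Several abundant genes of energy metabolism were lower in iso1a, as were 45.3% of all genes in the highest Rev bin. Of 88 genes of the respiratory chain and ATP synthase, 32 were lower and 18 higher (36 and 13 with TMM factors, 20 and 12 after centring), with a median of −0.28. After centring the median was −0.06, and the share of lower genes was near the 23.2% over all genes. ATPsynbeta, the catalytic subunit of ATP synthase, had 4415 counts in iso1a, compared with 127418 in Rev and 96522 in IR6 (−3.44 and −3.31) and overlaps CG11076, while ATPsynC had 3340, 16826 and 12676 and did not pass (−0.92 and −0.79). Of 23 genes of glycolytic enzymes, 11 were lower and 1 higher (median −0.96, with 14 and 1 under TMM factors, 10 and 1 after centring). Eno, which encodes enolase, had 1977 counts in iso1a, with 35682 in Rev and 30825 in IR6 (−2.76 and −2.83) and overlaps Rrp40. Gapdh1 had 1300 counts in iso1a, set against 23357 in Rev and 22772 in IR6 (−2.75 and −2.99).

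The proteasome, which degrades tagged proteins, lost more rank than the ribosome. Its fall by ratio was smaller, with a median log2 ratio of −1.45 against −2.62 for ribosomal protein genes. Of 45 subunit genes, 27 were lower and 3 higher (33 and 2 with TMM factors, 17 and 2 after centring), and their median rank was 54.1 in iso1a, 91.4 in Rev and 90.3 in IR6. Rpt1, an ATPase of the regulatory cap, had 97 counts in iso1a, compared with 6743 in Rev and 5291 in IR6, with log2 ratios of −4.70 (−5.01 to −4.41) and −4.62 (−4.94 to −4.34). Prosbeta7 of the core had 182, 6449 and 4896 counts (−3.73 and −3.61). Both were near the middle of the iso1a library or below it and near the top of Rev and IR6. Of 26 genes of the vacuolar ATPase, a proton pump, 6 were higher and 4 lower (6 and 6 with TMM factors, 8 and 5 after centring), and their median rank was 90.8 in iso1a, 83.1 in Rev and 82.6 in IR6. Of 19 housekeeping genes often used as references, 10 were lower and 4 higher (median −1.30, with 12 and 2 under TMM factors, 10 and 3 after centring). betaTub56D, a tubulin, had 553 counts in iso1a, with 31778 in Rev and 26601 in IR6 (−4.43 and −4.45).

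Muscle and cytoskeleton genes stayed near the top of all 3 libraries. Of 36 actin, tubulin and myosin genes, 12 were lower and 8 higher (12 and 7 with TMM factors, 11 and 11 after centring), with a median log2 ratio of 0.01 that was −0.37 with TMM factors. The ratios of single genes of this list lay far apart. Mlc1, a myosin light chain, had 10996 counts in iso1a, set against 16977 in Rev and 16244 in IR6 (0.79 and 0.57), and its partner Mlc2 had 11473, 57123 and 35210 (−0.90 and −0.48), neither past 2-fold. Act79B, an actin of adult muscle, had 1180 counts in iso1a, compared with 58482 in Rev and 49380 in IR6 (−4.21 and −4.25). The flight muscle gene fln was among the 5 genes with most counts in iso1a, with 11530 against 17386 in Rev and 13085 in IR6 (0.82 and 0.95).

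**Figure D2:**
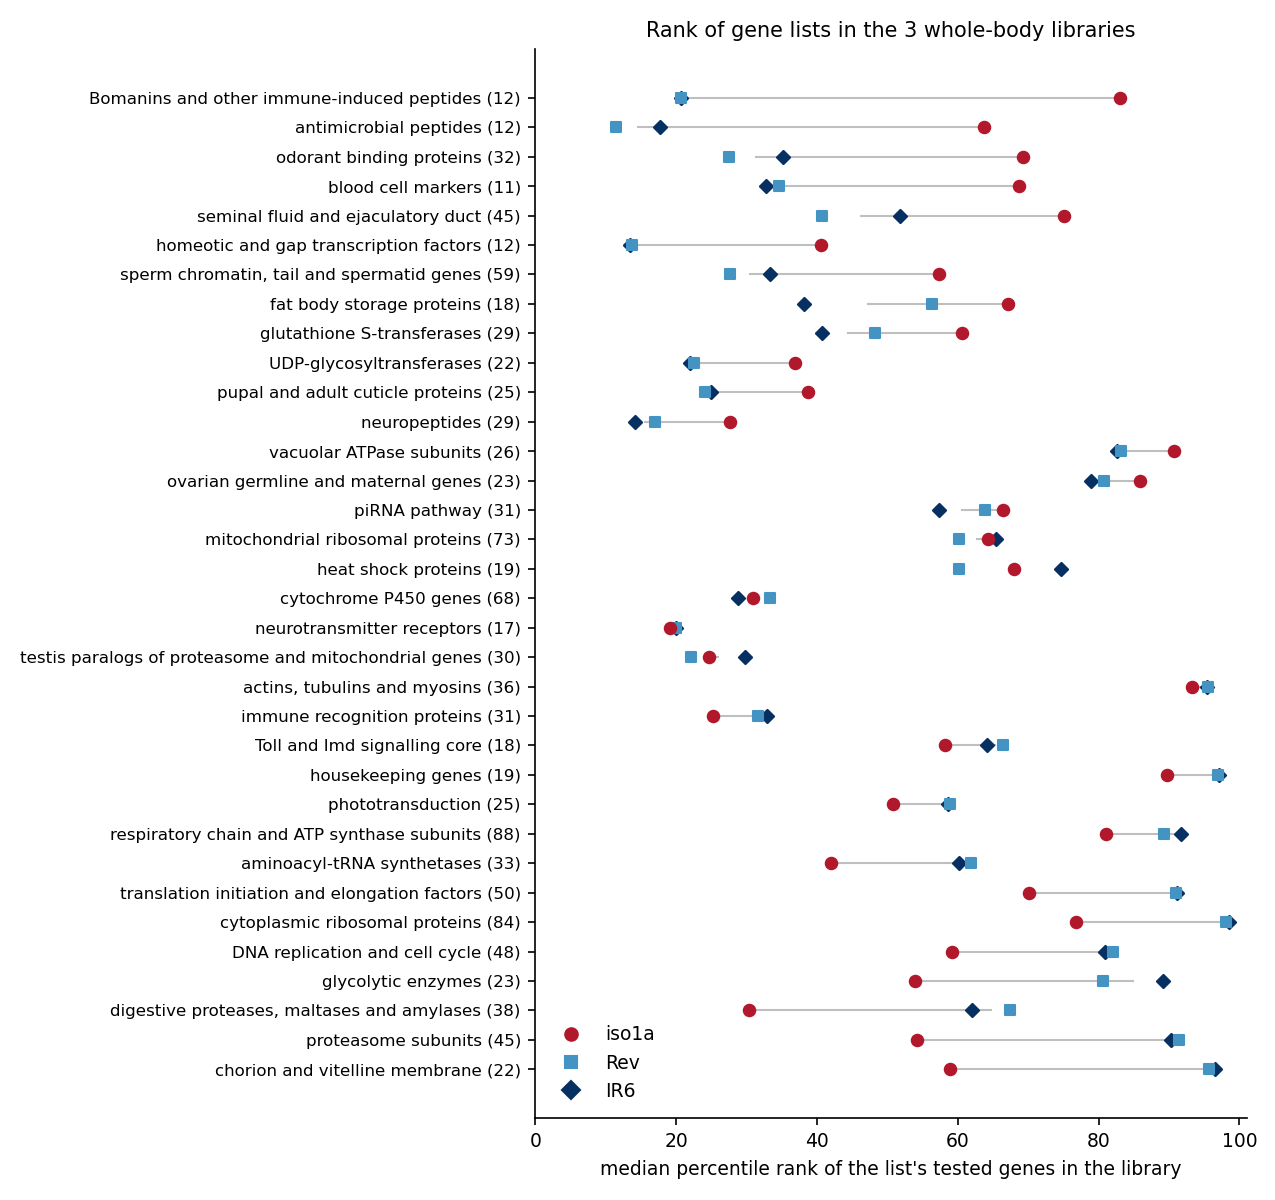
Median percentile rank of each gene list with at least 10 genes compared (number in brackets) in iso1a, Rev and IR6, ordered by the change of rank. Peptides of the immune response lie highest in iso1a relative to the others, and eggshell and proteasome genes lie lowest, while the symbols of Rev and IR6 lie close together for most lists.

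Genes of egg production held the largest shortfalls among abundant genes. All 3 yolk protein genes were lower in iso1a (3 with TMM factors and 3 after centring), with a summed level of 655 CPM in iso1a, 62180 CPM in Rev and 61974 CPM in IR6. Yp1 had 984 counts in iso1a, with 494716 in Rev and 413823 in IR6, with log2 ratios of −7.56 (−7.65 to −7.47) and −7.58 (−7.67 to −7.49), and overlaps an antisense RNA. Yp3 had 1241, 70797 and 54940 counts (−4.42 and −4.33). Yp1 was the highest of the 3 in Rev and IR6 but Yp3 had more counts than Yp1 in iso1a. Of 22 genes of the chorion and vitelline membrane, which form the eggshell, 15 were lower and 1 higher (15 and 0 with TMM factors, 12 and 0 after centring). Cp38 had 285 counts in iso1a, set against 139389 in Rev and 121994 in IR6 (−7.52 and −7.60), and Cp36 had 147, 31825 and 28836 (−6.34 and −6.47). The vitelline membrane gene Vml had 204 counts in iso1a, compared with 25603 in Rev and 6292 in IR6 (−5.55 and −3.81). Genes that act in the germ line of the ovary did not share this shortfall, as 7 of 23 were higher and 3 lower, a split that became 4 and 8 with TMM factors and 5 and 3 after centring. The germ plasm gene pgc had 4123 counts in iso1a, with 20950 in Rev and 28077 in IR6 (−0.93 and −1.63) and did not pass against Rev. The mitotic cyclin gene CycB had 4734, 5174 and 2695 counts (1.29 and 1.95), higher than both on the gene total but not with TMM factors.

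Genes of the male reproductive tract held both directions, and for the testis lists the balance depended on the scaling. Of 45 genes of seminal fluid and the ejaculatory duct, 22 were higher and 5 lower (22 and 5 with TMM factors, 20 and 8 after centring), with a median of 1.62, and their median rank was 75.1 in iso1a, 40.8 in Rev and 51.7 in IR6. Another 15 members of the list lay under the minimum in Rev and IR6 and had at least 50 counts in iso1a, and these were not called. Acp53Ea, an accessory gland protein, had 2886 counts in iso1a, set against 191 in Rev and 210 in IR6 (5.33 and 4.91). Sfp60F had 3093, 1141 and 4130 counts (2.85 and 0.72) and did not pass against IR6. Ebp, of the ejaculatory bulb, had 985 counts in iso1a, compared with 2445 in Rev and 4115 in IR6 (0.10 and −0.92). The list thus held both genes that were rare in Rev and IR6 and far higher in iso1a, and abundant genes that were not. Genes of sperm and spermatids moved both ways, with 25 of 59 higher and 11 lower, or 19 and 15 with TMM factors, and 13 and 12 after centring. dj, a protein of the sperm tail, had 1746 counts in iso1a, with 1378 in Rev and 1610 in IR6 (1.76 and 1.25), and the testis tubulin gene betaTub85D had 310, 3818 and 3818 (−2.20 and −2.48). Of 30 testis-specific relatives of proteasome and mitochondrial genes, 9 were higher and 5 lower on the gene total, a share near that of all genes. With TMM factors 6 were higher and 8 lower, and after centring 1 was higher and 10 lower. COX7AL, a relative of a respiratory chain subunit, had 798 counts in iso1a, set against 61 in Rev and 75 in IR6 (5.11 and 4.54).

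Peptides of the immune response had the largest gains of rank. Of 12 antimicrobial peptide genes compared, 10 were higher and 1 lower, with TMM factors as well, and their summed level, over all listed members, was 2110 CPM in iso1a, 133 CPM in Rev and 137 CPM in IR6. After centring on level and length, which compares short and rare genes with each other, 5 were higher and 4 lower. Dso1, a peptide made under the Toll pathway, had 1571 counts in iso1a, compared with 103 in Rev and 143 in IR6 (5.34 and 4.59), and Anp, which encodes andropin of the ejaculatory duct, had 1472, 29 and 74 (7.06 and 5.44). AttC, an attacin and the member that was lower, had 10 counts in iso1a, with 741 in Rev and 299 in IR6, and it was picked for mention after its value was seen. Of 12 Bomanin and other immune-induced peptide genes, 9 were higher and 0 lower (8 and 1 with TMM factors, 6 and 1 after centring). BomS1, a short peptide made under the same pathway, had 2904 counts in iso1a, set against 20 in Rev and 55 in IR6, log2 ratios of 8.56 (7.97 to 9.31) and 6.85 (6.48 to 7.27). BomS3 had 802 counts in iso1a, compared with 3805 in Rev and 2905 in IR6 (−0.83 and −0.72). BomS1 was near the bottom of Rev at a rank of 0.403 and near the top of iso1a at 98.4, whereas BomS3 was abundant in Rev and IR6.

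The receptors and recognition proteins of the same pathways held both higher and lower members. Of 31 immune recognition genes, 10 were lower and 7 higher (13 and 6 with TMM factors, 11 and 3 after centring), and of 18 genes of Toll and Imd signalling, 6 were higher and 3 lower (4 and 4, then 6 and 3). Tl, the Toll receptor, had 2651 counts in iso1a, with 804 in Rev and 540 in IR6 (3.14 and 3.43), and Dif, a transcription factor downstream of it, had 856, 540 and 361 (2.08 and 2.38) and overlaps CG15141. cact, the inhibitor that holds Dif in the cytoplasm, had 691 counts in iso1a, set against 4274 in Rev and 2334 in IR6 (−1.21 and −0.62) and overlaps fzy. nec, an inhibitor of proteases upstream of Toll, had 68 counts in iso1a, compared with 1843 in Rev and 1150 in IR6 (−3.33 and −2.93). Of 4 Turandot stress peptide genes 2 were higher and 0 lower (1 and 0 after centring). TotX had 801 counts in iso1a, with 70 in Rev and 27 in IR6 (4.92 and 6.002), while TotA had 1356, 2495 and 369 (0.54 and 3.01), at 309.6 CPM in iso1a, 213.5 CPM in Rev and 38.3 CPM in IR6, and did not pass against Rev. Of 6 lysozyme genes 3 were higher and 0 lower, with TMM factors as well, but after centring 0 were higher and 3 lower, and these genes include near copies of each other. Blood cell markers were higher in 6 of 11 cases and lower in 1 (4 and 1 with TMM factors and after centring), among them the phagocytic receptor gene crq with 2006 counts in iso1a, set against 2018 in Rev and 1315 in IR6 (1.41 and 1.75), which overlaps ex.

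Genes of digestion were lower in iso1a. Of 38 digestive protease, maltase and amylase genes, 21 were lower and 4 higher (21 and 3 with TMM factors), and after centring 19 were lower and 0 higher. The median rank of the list was 30.3 in iso1a, 67.4 in Rev and 61.98 in IR6. betaTry, a trypsin, had 33 counts in iso1a, compared with 7597 in Rev and 4447 in IR6, with log2 ratios of −6.41 (−6.97 to −5.94) and −5.92 (−6.48 to −5.44). Jon65Aiv, a serine protease of the gut, had 317, 10783 and 16525 counts (−3.67 and −4.56). Both lay far below their level in Rev and IR6, and the trypsin genes include near copies of each other. Families of detoxification genes held both higher and lower members. Of 68 cytochrome P450 genes, 15 were higher and 13 lower (11 and 17 with TMM factors, 16 and 15 after centring), and of 22 UDP-glycosyltransferase genes 7 were higher and 2 lower (4 and 3, then 5 and 1). Cyp4g1, which makes hydrocarbons of the cuticle, had 5435 counts in iso1a, with 35854 in Rev and 30711 in IR6 (−1.31 and −1.36). When centred on the bin of level, both its ratios were positive and the smaller was 0.09. Of 29 glutathione S-transferase genes, 10 were higher and 2 lower (10 and 4 with TMM factors, 6 and 2 after centring). GstS1 had 6584 counts in iso1a, set against 2113 in Rev and 1795 in IR6 (3.06 and 3.01), whereas GstD1 had 752, 12089 and 12719 (−2.59 and −2.94), so the order of these 2 genes by counts differed between the lines.

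Of 32 odorant binding protein genes, 19 were higher and 2 lower (15 and 3 with TMM factors, 12 and 6 after centring), with a median rank of 69.25 in iso1a, 27.5 in Rev and 35.2 in IR6. These proteins carry odorants in the fluid around sensory neurons, and some are made in other tissues. Obp57a had 2306 counts in iso1a, compared with 305 in Rev and 47 in IR6 (4.33 and 6.74), and Obp99c had 361, 10491 and 14388 (−3.44 and −4.18) and overlaps Gycalpha99B. Receptors of smell and taste were too rare to compare as families, as only 2 of 41 odorant receptor genes, 1 of 45 gustatory receptor genes and 2 of 45 ionotropic receptor genes passed the minimum, along with 5 of 24 pickpocket channel genes. The co-receptor gene Orco had 8 counts in iso1a, with 55 in Rev and 36 in IR6 (−1.29 and −0.97) and did not pass against IR6. Of 25 phototransduction genes, 9 were lower and 5 higher (11 and 4 with TMM factors, 9 and 6 after centring). The rhodopsin gene ninaE had 1768 counts in iso1a, set against 3724 in Rev and 3700 in IR6 (0.34 and 0.07) and did not pass, while Arr2, an arrestin that shuts rhodopsin off, had 850, 12779 and 24775 (−2.49 and −3.73). Of 29 neuropeptide genes, 12 were higher and 7 lower (12 and 9 with TMM factors, 7 and 12 after centring). Nplp3 had 1368 counts in iso1a, compared with 27338 in Rev and 30534 in IR6 (−2.90 and −3.34), and CCHa2 had 1490, 749 and 875 (2.41 and 1.90). Of 17 neurotransmitter receptor genes, 5 were higher and 4 lower (4 and 6 with TMM factors, 2 and 6 after centring), and Rdl, the receptor of GABA, had 41 counts in iso1a, with 538 in Rev and 590 in IR6 (−2.28 and −2.69).

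Storage, cuticle and patterning genes leaned upward on the gene total. Of 18 genes of the fat body, 7 were higher and 0 lower (6 and 0 both with TMM factors and after centring), yet the summed level was alike, at 2681 CPM in iso1a, 2238 CPM in Rev and 2159 CPM in IR6. apolpp, the lipid carrier of the blood, had 3485 counts in iso1a, set against 14166 in Rev and 13089 in IR6 (−0.61 and −0.77), and the larval storage protein gene Lsp2 had 754, 1831 and 1209 (0.14 and 0.46), so the abundant members did not pass. Of 25 pupal and adult cuticle protein genes, 11 were higher and 4 lower (10 and 4 with TMM factors, 9 and 4 after centring). Cpr49Ae had 3828 counts in iso1a, compared with 659 in Rev and 871 in IR6 (3.95 and 3.27), and Cpr97Eb had 227, 5582 and 1625 (−3.20 and −1.70). Of 12 homeotic and gap transcription factor genes compared, 9 were higher and 0 lower (8 and 0 with TMM factors, 7 and 1 after centring), while 20 more members lay under the minimum. Antp, which sets segment identity, had 387 counts in iso1a, with 92 in Rev and 70 in IR6 (3.48 and 3.60) and overlaps CG46458, and the maternal gene bcd had 623, 640 and 476 (1.38 and 1.53).

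Genes of cell division were called lower more often than higher, but the calls were nearly even after centring. The median log2 ratio of their list was 0.14, where that over all genes was 0.31. The balance of genes of TE control depended on the scaling. Of 48 DNA replication and cell cycle genes, 14 were lower and 7 higher by ratio (20 and 4 with TMM factors, 9 and 8 after centring), and 20 were lower and 3 higher by rank. CycA had 2389 counts in iso1a, set against 15640 in Rev and 13662 in IR6 (−1.29 and −1.38). When centred on the bin of level, both its ratios were positive and the smaller was 0.07. Of 31 piRNA pathway genes, 8 were higher and 3 lower, or 5 each way under TMM factors and 11 higher against 3 lower after centring. piwi, which directs silencing in the nucleus, had 2020 counts in iso1a, compared with 2228 in Rev and 1298 in IR6 (1.27 and 1.78) and overlaps SCAR. AGO3, its cytoplasmic relative, had 1111, 1533 and 857 counts (0.95 and 1.51) and did not pass against Rev, while papi, a Tudor protein of the mitochondrial surface, had 388, 2087 and 1751 (−1.01 and −1.04). Of 19 heat shock genes, 7 were lower and 5 higher (7 and 2 with TMM factors, 8 and 5 after centring), with Hsp27 at 221 counts in iso1a, with 15848 in Rev and 12241 in IR6 (−4.75 and −4.65). Of 4 histone genes 1 was higher and 0 lower (0 and 2 with TMM factors, 1 and 0 after centring), and of 3 genes of the Enhancer of split and achaete-scute complexes 1 was higher and 1 lower (1 and 2 after centring).

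Some lists held a few members that went against the rest, named here after their values were seen. The 3 proteasome genes that were higher were Prosbeta4R1, Rpt6R and Prosbeta5R2, whose names mark them as relatives of core and cap subunits, with 53 to 80 counts in iso1a, 31 to 66 in Rev and 29 to 40 in IR6. The higher members of the aminoacyl-tRNA synthetase, glycolytic and eggshell lists were ArgRS, CG7362 and Vm32E. The 4 digestive genes that were higher, lambdaTry, zetaTry, iotaTry and Jon99Fii, had 44 to 172 counts in iso1a, 36 to 115 in Rev and 34 to 146 in IR6, so they were rare members in all 3 lines. In the seminal fluid list, lectin-46Ca, lectin-46Cb, NT5E-2, hdly and Spn77Ba were lower. lectin-46Ca had 0 counts in iso1a, set against 147 in Rev and 187 in IR6. The blood cell marker that was lower was PPO2, a phenoloxidase of crystal cells, with 1 count in iso1a, compared with 210 in Rev and 310 in IR6. Among ovarian genes dhd, png and alphaTub67C were lower, and the maternal tubulin gene alphaTub67C had 168 counts in iso1a, with 8476 in Rev and 7028 in IR6. In Toll signalling, nec, Myd88 and pll were lower, and the adaptor gene Myd88 had 76 counts in iso1a, set against 1538 in Rev and 846 in IR6. In the piRNA list papi, egg and tj were lower, and tj, a transcription factor of somatic gonad cells, had 0 counts in iso1a, compared with 34 in Rev and 27 in IR6.

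Among single genes, the largest excesses by the smaller of the 2 ratios were those of BomS1, CG17472, BomS4, CG31205, Dyro, CG9928, Drsl4, CG31704, t and eIF4H1. CG31205 had 1677 counts in iso1a, with 55 in Rev and 0 in IR6, which against IR6 is at least 1230-fold more with 3 counts in place of 0. Drsl4, a relative of the antifungal peptide drosomycin, had 1915 counts in iso1a, set against 81 in Rev and 70 in IR6 (5.97 and 5.90). t, the tan hydrolase of eye and pigment metabolism, had 635, 34 and 26 counts (5.62 and 5.72). eIF4H1, a helper of translation initiation, was the most abundant of these, with 7129 counts in iso1a, compared with 325 in Rev and 322 in IR6 (5.87 and 5.60). Apart from eIF4H1, at rank 45.8 in Rev and 53.6 in IR6, they stood at rank 17.5 or below in both.

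The largest shortfalls fell into 2 kinds, genes nearly missing from iso1a and genes of egg production. Debcl, which encodes a member of the Bcl-2 family of cell death regulators, had 1 count in iso1a, with 1142 in Rev and 1039 in IR6, with log2 ratios of −8.16 (−14.05 to −6.26) and −8.30 (−14.19 to −6.40). dpy, a giant matrix protein that anchors muscle and cuticle, had 2, 2828 and 1165 counts (−8.73 and −7.73). pps had 0 counts in iso1a, set against 552 in Rev and 312 in IR6, a shortfall of at least 69.0-fold and 47.3-fold, and overlaps Scgbeta. CG14656 had 0 counts in iso1a, compared with 493 in Rev and 251 in IR6, a shortfall of at least 61.6-fold and 38.04-fold. CG9676, CG33301, CG32132 and CG34306 were also at 0 in iso1a, with 184 to 262 counts in Rev and 137 to 243 in IR6, and Yp1 and Cp38 complete the 10. In all, 69 genes compared were at 0 in iso1a, where 3 counts stand for 0.685 CPM. Of all genes listed, 503 were listed in Rev and IR6 but not in iso1a, and 215 in iso1a alone. A gene listed under other transcripts in one library would be seen here as a difference between lines, and that was not tested.

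By rank the largest losses were those of TMEM216, CG31661, dpy, betaTry and CG32642. TMEM216 had 13 counts in iso1a, with 3232 in Rev and 2937 in IR6, and it stood at rank 6.43 in iso1a, 94.5 in Rev and 95.2 in IR6, but it overlaps Cks85A and CG11760. CG32642 had 13, 1959 and 1472 counts (−5.77 and −5.63). Under the minimum in Rev and IR6, the most iso1a counts belonged to Acp26Ab, CG30080, CG30016, CG32695, lectin-29Ca, Sfp24C1, CG13026, ATPsynepsilonL, CG17376 and Sfp24Ba, with 757 to 1274 counts in iso1a, 1 to 24 in Rev and 3 to 33 in IR6. Acp26Ab, a seminal fluid protein, had 1274 counts in iso1a, set against 17 in Rev and 19 in IR6 (7.60 and 7.17), and Acp26Ab, lectin-29Ca, Sfp24C1 and Sfp24Ba are members of the seminal fluid list.

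**Figure D3:**
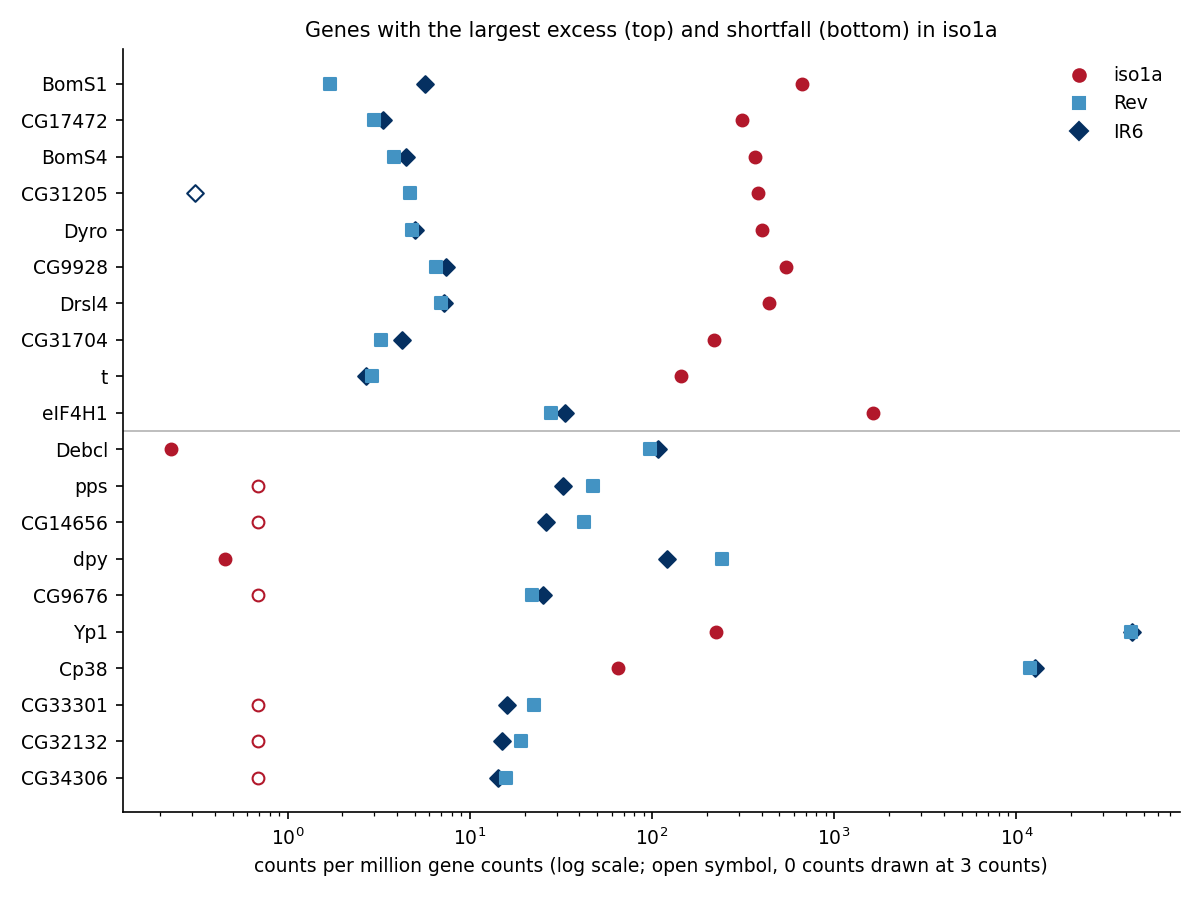
CPM (log scale) of the 10 genes with the largest excess in iso1a (above the line) and the 10 with the largest shortfall (below it), in iso1a, Rev and IR6. Open symbols are genes at 0, drawn at 3 counts. In every row the Rev and IR6 symbols lie on the same side of iso1a, which the choice of these genes requires.

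Transcript length, which the calls do not use, went with the direction of the difference. Genes were put in 10 bins by the length of their longest transcript in a newer annotation. In the bin of the shortest transcripts, with a median of 648.5 nt, 64.6% of genes were higher in iso1a and 8.90% lower, and the median log2 ratio was 1.92. In the fourth bin, with a median of 1460 nt, 17.4% were higher and 33.03% lower (median −0.39). In the ninth, with a median of 4118 nt, 40.04% were higher and 13.4% lower (median 0.77). Both short and long transcripts were thus higher in iso1a more often than those between, whereas between Rev and IR6 the bin medians went only from −0.29 in the shortest bin to 0.29 in the longest. The shortest bin was also lowest in level, with a median of 15.6 CPM in Rev, against 35.7 CPM in the fourth bin, but with ratios centred on bins of level its median log2 ratio was still 1.58 against Rev and 1.20 against IR6. In the fourth bin it was −0.68 and −0.72, and in the ninth 0.43 and 0.53.

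Chromosome 4, a small chromosome rich in heterochromatin and repeats, stood apart from the other arms. Of its 75 genes compared, 42 were higher in iso1a (56.0%) and 2 lower (2.67%), with a median log2 ratio of 1.503. On the other arms with at least 20 genes, 26.8% of genes on X, 35.2% on 2L, 31.0% on 2R, 32.6% on 3L and 28.96% on 3R were higher, and 26.8%, 17.0%, 21.3%, 19.2% and 22.0% were lower. Genes of chromosome 4 are long, with a median transcript of 3900 nt, and after centring on level and length their median log2 ratios were still 1.34 against Rev and 1.30 against IR6, with 39 higher and 6 lower. The 2 genes at least 2-fold lower, picked for mention after their values were seen, were ATPsynbeta and RpS3A, with 2161 counts in iso1a, compared with 30998 in Rev and 25440 in IR6. The synaptic gene unc-13 had 4854 counts in iso1a, with 1057 in Rev and 653 in IR6, and the synaptotagmin gene Syt7 had 1029, 179 and 109, and both were also picked after their values were seen. Among these arms, genes on X were the least often higher, and their median ratio was 0.02, which after centring on level and length was −0.18 against Rev and −0.24 against IR6.

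**Figure D4:**
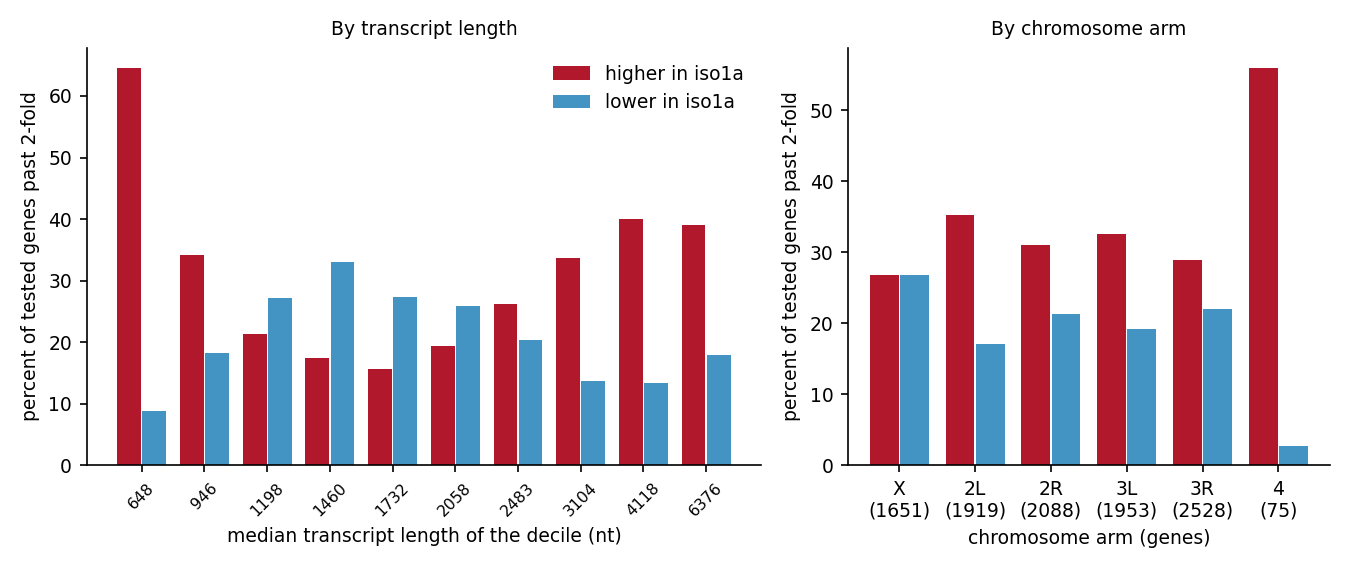
Percent of genes compared that were at least 2-fold higher (left bar) or lower (right bar) in iso1a than in both Rev and IR6, by decile of transcript length (left panel) and by chromosome arm (right panel, genes compared in brackets). The shortest decile (64.6%) and chromosome 4 (56.0%) have the largest shares of higher genes.

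Of all counts on genes and TEs together, TEs took 57.1% in iso1a (57.0 to 57.1), 2.33% in Rev and 2.67% in IR6. A single stretch of unplaced sequence held 91.3% of the TE counts of iso1a, 37.4% of those of Rev and 51.1% of those of IR6. It runs from 5288185 to 5303794 of arm U in the files' own coordinates, whose genome build is not given in the sources used here. It holds 17 annotated copies of 10 families. Without it the TE share was 10.4% in iso1a, 1.47% in Rev and 1.32% in IR6, and the values below leave it out.

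Most TE families were higher in iso1a when scaled to gene counts. Of 107 families with at least 50 counts in Rev and IR6 together, 86 exceeded both lines by 2-fold or more (80.4%) and 7 fell short of both by as much (6.54%), with or without the stretch, and 81 and 7 with TMM factors. The median log2 ratio over families was 2.91, while between Rev and IR6 it was 0.18. Scaled to the TE total outside the stretch in place of the gene total, an alternative chosen after seeing the data, 23 families were higher and 29 lower. With the stretch in both the families and the total, 4 were higher and 86 lower, and the stretch holds 91.3% of that total in iso1a. A count called higher here is therefore a statement about TE counts relative to gene counts. DNA transposons were higher in 16 of 16 families (median 3.04), gypsy and related LTR families, retrotransposons with long terminal repeats, in 23 of 27 (median 3.61), and other LTR families in 19 of 20 (median 2.95). Of 5 telomeric non-LTR families, which extend the chromosome ends (HeT-A, TAHRE, TART-A, TART-B and TART-C), 4 were higher. This list leaves out families named for telomeric elements of other species. Of those, Dvir_TART and Dyak_TART were lower, Dyak_HeT-A was higher and Dvir_Het-A was neither.

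The remaining non-LTR families, which lack terminal repeats and copy themselves at the site of insertion, were the least uniform class. Of 20 such families 11 were higher and 4 lower, with a median of 1.38. The summed counts of the class were 4153 in iso1a, 6108 in Rev and 4193 in IR6. These sums are not scaled, and iso1a had the smallest gene total (4379746, 11685814 and 9633168), so they do not rank the lines. The I-element, a germline retrotransposon known for a syndrome of sterility in crosses, had 195 counts in iso1a, set against 3969 in Rev and 2758 in IR6, with log2 ratios of −2.93 (−3.15 to −2.72) and −2.68 (−2.90 to −2.47). Over its long copies alone both ratios were positive, and the smaller was 1.61. R1A1-element, which inserts in ribosomal RNA genes, had 4 counts in iso1a, compared with 65 in Rev and 43 in IR6 (−2.45 and −2.14), and the related Rt1b had 9, 131 and 128 (−2.38 and −2.62). Doc had 174 counts in iso1a, with 70 in Rev and 58 in IR6 (2.72 and 2.71) and jockey had 536, 116 and 65 (3.62 and 4.17), so members of this class lay on both sides. Doc and jockey were picked for mention after their values were seen.

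The other families that were lower were Dyak_TART, Dvir_TART, Rt1c and Dmir_spock, of which 3 carry the name of another Drosophila species. Dvir_TART, named for the telomeric element of Drosophila virilis, had the most counts of all families in Rev and IR6 outside the stretch, with 6262 in iso1a, 53558 in Rev and 36095 in IR6 (−1.68 and −1.39). Dyak_TART had 0 counts in iso1a, set against 79 in Rev and 27 in IR6 over 3 copies. Without copies that overlap another, Dyak_TART had 0 counts in all 3 libraries, so no ratio could be read. TART-C lay between the lines, with 145 counts in iso1a, compared with 3372 in Rev and 65 in IR6 (−3.12 and 2.29). HeT-A, the main telomeric element, had 1962 counts in iso1a, with 792 in Rev and 680 in IR6 (2.72 and 2.67), and like ZAM, copia and blood below it was picked for mention after its value was seen.

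The families with the largest ratios were Tabor, Dbif_P-element_O, Dbif_P-element_M, Penelope and mdg3. Tabor, a gypsy relative, had 2585 counts in iso1a, set against 118 in Rev and 87 in IR6, with log2 ratios of 5.86 (5.60 to 6.15) and 6.02 (5.72 to 6.36), and its copy with the most counts held 23.1% of them. In Penelope 99.4% of the 1075 iso1a counts lay on 1 of 2 copies, against 78 counts in Rev and 33 in IR6 for the family. Among the 5 families with the most counts in iso1a were mdg1 with 67313 counts against 8423 in Rev and 6927 in IR6 (4.41 and 4.42), McClintock with 57140 against 14695 and 12764 (3.37 and 3.30), Quasimodo with 44082 against 6099 and 5312 (4.27 and 4.19) and Stalker2 with 38070 against 7958 and 5787 (3.67 and 3.85). These were also among the most abundant families of Rev and IR6. ZAM had 3830 counts in iso1a, compared with 1450 in Rev and 548 in IR6 (2.82 and 3.94), copia had 625, 66 and 62 (4.65 and 4.46) and blood had 4461, 486 and 230 (4.61 and 5.41).

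**Figure D5:**
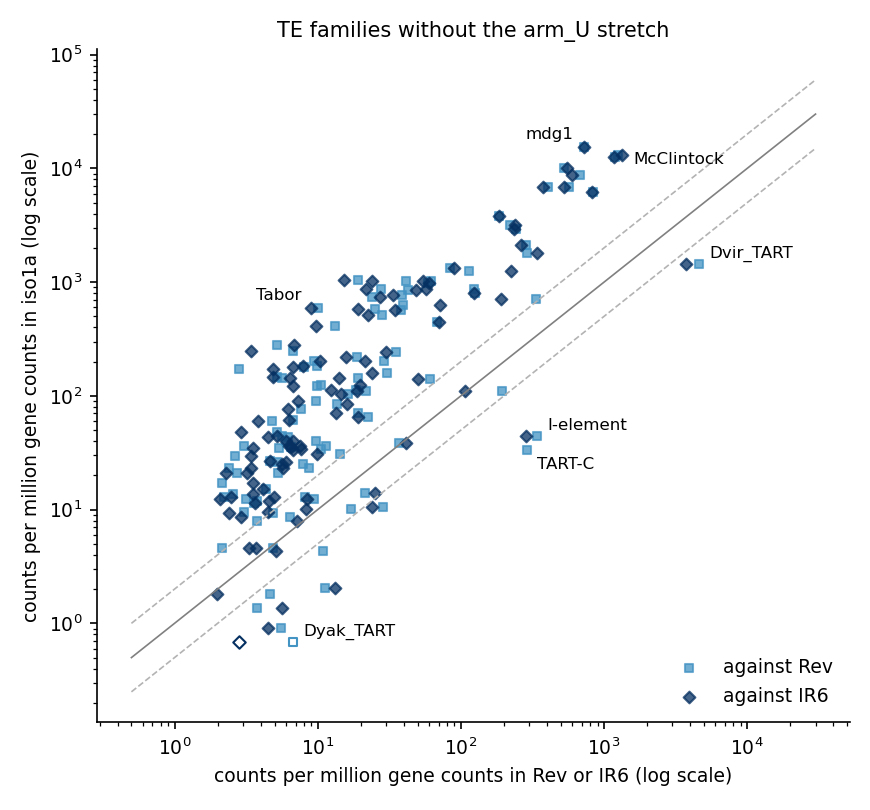
Level of each TE family in iso1a against its level in Rev (squares) or IR6 (diamonds), in CPM on log scales and without the arm U stretch. The solid line marks equal levels and the dashed lines 2-fold, and open symbols are at 0 counts in iso1a, drawn at 3 counts. Most families lie above the upper dashed line, and the I-element, Dvir_TART and Dyak_TART lie below the lower one.

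The excess was seen on each chromosome arm named here, but most TE reads lay on a small part of the copies. The top 1000 of the 20936 copies outside the stretch held 94.9% of the iso1a TE counts there. This share was 91.2% for Rev and 91.5% for IR6. Outside the stretch the log2 ratio of summed TE counts was 3.00 against Rev and 3.12 against IR6 on 2L, 2.99 and 3.03 on 2R, 3.00 and 3.26 on 3L, 2.87 and 2.96 on 3R, 2.99 and 3.13 on X and 2.73 and 3.70 on chromosome 4. It was 5.94 and 6.05 on 2LHet and 1.51 and 1.89 on the rest of arm U, where counts were few (2188 in iso1a, 2048 in Rev and 1299 in IR6). Counts lay mainly on short copies. Copies of 200 to 499 bp held 363514 counts in iso1a, with 103625 in Rev and 81692 in IR6, which is 28.9, 3.09 and 2.95 CPM per kb of copy. Copies of 2000 bp or more held 10133, 6633 and 5199 counts, which is 0.186, 0.046 and 0.043 CPM per kb. Both length classes were higher in iso1a, but per length the short copies held far more reads in each of the 3 libraries. With copies of long span alone, those that reach 50% of the family's longest aligned span, 45 of 66 families were higher and 6 lower.

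Single copies showed that the ratio was not one constant. The copy with the most iso1a counts, a 496 bp McClintock copy on 2R, had 10031 counts in iso1a, set against 4606 in Rev and 4569 in IR6 (2.54 and 2.27). A 268 bp HMS-Beagle copy at 6927401 to 6927668 of 2L had 9565, 3983 and 3695 counts (2.68 and 2.51). A 600 bp Quasimodo copy at 11248597 to 11249196 of 3L had 8291 counts in iso1a, compared with 180 in Rev and 133 in IR6 (6.94 and 7.09). The last was far above the other 2 in its ratio, although its family had ratios of 4.27 and 4.19. A 339 bp mdg1 copy on 2R had 7872 counts in iso1a, with 663 in Rev and 608 in IR6 (4.98 and 4.83), and a 243 bp HMS-Beagle copy on 2R had 6787, 3823 and 2652 (2.24 and 2.49). Of 20936 copies outside the stretch, 2305 had counts in all 3 libraries, 2004 in iso1a alone and 1247 in both Rev and IR6 but not in iso1a. With at least 10 counts these became 199 in iso1a alone and 221 in both others, each of the 2 having 10. Which gene, if any, the reads of a copy belong to was not determined, and reads that fit many copies may have been placed on any of them.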

How the data were processed

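The deposited values of genes were counts of reads per annotated transcript, and those of TEs were counts of reads per annotated copy, whole numbers with no scaling by the authors. Reads were aligned with Bowtie, per the submitters' processing notes. What the label normalization means, how reads with several matches were handled, the build of the genome and the Bowtie version are not given in the sources used here. A gene's value was the largest count among the transcripts of its CG number, and an unlisted gene was taken as 0, which in a deposited list may also mean that it was not reported. CG numbers were matched to symbols by locus tag (12471 genes) or a unique synonym (153), and 639 kept the CG number. A row without a gene name was left out, at 155, 36.8 and 24.6 CPM in iso1a, Rev and IR6. BDGP6 gave transcript lengths, for 97.0% of genes compared, and exons shared with another gene, never positions. Since the libraries are unstranded, reads of overlapping genes cannot be told apart, and 3797 of the genes compared overlap another.

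After adding 0.5, counts were scaled to the gene total (CPM) and their log2 ratio was taken. A call needed 2-fold against both Rev and IR6, and the ratio closer to 0 was the size. Intervals of ratios were exact Clopper-Pearson intervals conditional on the sum, and they and the floors of 3 counts cover counting error only. In R 4.3.3, edgeR 4.0.16 gave TMM factors and DESeq2 1.42.0 gave median-ratio factors. Everything else ran in Python 3.11.15 (scipy 1.17.1, pandas 2.3.3, numpy 2.4.6, matplotlib 3.10.9). Centred ratios had the median of their bin removed, with 20 bins of level, or 10 of length by 5 of level. The calling functions were tested on simulated counts before use. Tests across libraries were not possible with 1 library per line. Genes named were the 10 largest ratios in each direction, the 5 largest rank gains and losses, the 10 with most iso1a counts under the minimum, the 5 with most counts per library and the 4 members of highest mean CPM in each list, and others are marked. The members, the 43 gene lists and the 5 TE lists were chosen with earlier results of these data known, and members that a name search had brought in by error were removed after values were seen. Strand and the 5′ position of reads were not analysed here.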

Additional observations from a re-analysis of the deposited data

Results flagged for a closer look

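The gene table of each library holds a row with no gene name, which no comparison used. It held 681 counts in iso1a, compared with 430 in Rev and 237 in IR6, which is 155 CPM in iso1a, 36.8 CPM in Rev and 24.6 CPM in IR6. The row was marked because it is a signal outside the genes compared, above the level that 3 counts stand for in each library (0.685, 0.257 and 0.311 CPM in the same order). What its reads are was not determined.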

How the results depend on the processing

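Genes at least 2-fold higher in iso1a numbered 3210 and genes lower 2166 on the gene total. Higher genes fell to 1328 with at least 500 counts in Rev and IR6 together, which leaves fewer genes, to 1481 at 4-fold (1031 lower), and, in alternatives chosen after seeing the data, to 2090 with ratios centred on level and transcript length and to 2040 without genes that overlap another. With no minimum 4636 were higher and 2485 lower, and with the minimum counted in each pair with iso1a 3635 and 1991. A pseudocount of 5, sums over transcripts, Rev alone and IR6 alone kept both counts within 1.5 times. By rank, a threshold of 20 points gave 1803 up and 1888 down, and 500 counts gave 1845 and 1858. Of 36 lists with at least 5 genes compared, 9 had a median at least 2-fold higher and 6 at least 2-fold lower. The 9 became 5 with TMM factors, 5 centred on level, 3 centred on level and length, and 14 with the minimum per pair, which lets genes in through iso1a. Of 144 list medians under alternatives, 29 moved, which means that they crossed the 2-fold line. A reversal was counted only where the main median was at least 2-fold, and 0 were found. Smaller medians did change sign after centring on level and length, among them lysozymes (0.446 to −2.54), mitochondrial ribosomal proteins (0.58 to −0.20) and neuropeptides (0.10 to −0.86). Of 1682 values of named genes, by the same rules, 115 moved and 2 reversed, Cyp4g1 (0.0869) and CycA (0.0725), both centred on level. The TE share of 57.1% in iso1a was 10.4% without the arm U stretch, 34.6% without each family's copy with most iso1a counts, 57.0% without overlapping copies and 0.784% over copies of long span outside the stretch, the last chosen after seeing the data. The 86 TE families higher became 45 over those long-span copies and 4 scaled to the TE total, where 86 were lower, or 23 scaled to the TE total without the stretch, where 29 were lower (chosen after seeing the data). The I-element reversed (1.61) over long-span copies. Dyak_TART was marked as reversed (1.14) without overlapping copies. There it had 0 counts in every library, so the value comes from the added 0.5 and shows no change of direction. Where nothing else is said, the cause was not tested. No paired analysis was possible because each line has 1 library, and no library could be left out. The iso1a depth of 4379746 gene counts limits what a count of 0 there can show to levels above 0.685 CPM.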
